A study of Mus musculus with 23 samples.

Results

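The gene expression of 2 classes of clonal mouse preadipocyte lines, labelled Type 1 and Type 2, was set side by side. The 3 Type 1 and 5 Type 2 lines were taken by their labels and make up 8 of the 23 lines profiled, of which 8 others are Type 3 and 7 carry the label Other. Every line grew from 1 stromovascular cell, a cell left from fat tissue once the adipocytes are removed, and 1 male Immortomouse aged 8 weeks gave them all. This strain carries a temperature-sensitive viral T antigen under a promoter that interferon-gamma induces. All lines, Type 1 and Type 2 alike, were therefore held at 33 °C with interferon-gamma at 10 units/mL, in a medium made for preadipocytes. The founders were 190 cells sorted one per well, with no gate, after 2 passages. The Type 1 lines are PGF2-8, PGF3-4 and PGF3-11, and the Type 2 lines are SCF1-23, SCF3-1, SCF3-8, SCF3-11 and PGF3-2; values per line follow this order throughout. PGF and SCF in a name were taken as perigonadal and subcutaneous fat. Thus all Type 1 lines are perigonadal, while Type 2 has 1 perigonadal line among 5 (two-sided Fisher's exact test of type against depot, p = 0.143). From each line 250 ng of RNA was labelled with biotin and read on 1 oligonucleotide array. The sources used here do not say whether it was taken before or after adipogenic induction.

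As background, preadipocytes are fibroblast-like cells that can fill with lipid and become adipocytes under Pparg and the C/EBP factors. Visceral fat, which includes the perigonadal depot, is covered by mesothelium, an epithelial sheet of mesodermal origin that makes keratins, uroplakins and the transcription factor Wt1, whereas subcutaneous fat has no such cover. The study marks its classes by Wt1 (Type 1), Tagln (Type 2) and Mx1 (Type 3). Because the submitters sorted the lines into classes by how their expression clustered on these very arrays, the p-values below only describe the classes. They cannot serve as separate evidence for them.

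Values are log2 signal as deposited, and a difference is Type 1 minus Type 2 with its standard error (SE). The contrast was fitted with limma over all 23 lines, and a gene passed at an adjusted p below 0.05. The SE pools the spread within all 4 groups. For a gene that is low outside Type 1, the SE and p can therefore understate the spread among the Type 1 lines. Rspo1 and Col8a2 below are examples. Of 12307 genes tested, 1782 were higher (14.5%) and 1317 lower (10.7%) in Type 1, which makes 3099 in all (25.2%). Each list count below is to be read beside these shares. The 3 Type 1 lines lay wholly outside the range of the 5 Type 2 lines in 3955 genes (32.1%). Among genes that passed, 631 were higher and 572 lower by at least 1 on the log2 scale, and 51 were higher and 33 lower by at least 4. The median difference over all genes was 0.012. Array pairs within Type 1 correlated at 0.978 to 0.992, within Type 2 at 0.987 to 0.991, and between the types at 0.942 to 0.970. Line PGF2-8 stood apart: its actin 3' probe set exceeded the 5' one by 1.58, against 0.678 and 0.705 in the other Type 1 lines and 0.650 to 1.00 in Type 2, and its part in the results was not tested beyond leaving it out. Without it 2004 genes passed, 1081 higher and 923 lower. Fits against PGF3-2 alone leave 1 line in Type 2, which widens the standard error. A call lost there does not by itself mean a smaller difference. No detection calls were used, so a level near the bottom of the scale cannot be told from background, and folds against such levels are those of the deposited values. A gene also had to exceed the table median of 5.13 in at least 3 lines to be tested, so one high in Type 1 alone entered only if all 3 Type 1 lines exceeded it. Of the genes tested, 163 entered only through the Type 1 lines, meaning here that fewer than 3 of the remaining lines exceeded that median. Of these, 117 passed as higher, so such calls are no support by themselves. In lists other than the mesothelial one they include Hand2, Zic1, Col4a6, Col8a2, Mmp13, Itga7, Bmp4, Wnt9a, Frzb, Ror1, Igfbp2, Sema4a and Il33. A few other lines could still exceed the median, as SCF3-1 and SCF3-11 did for Zic1 and SCF1-23 for Hand2.

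**Figure D1:**
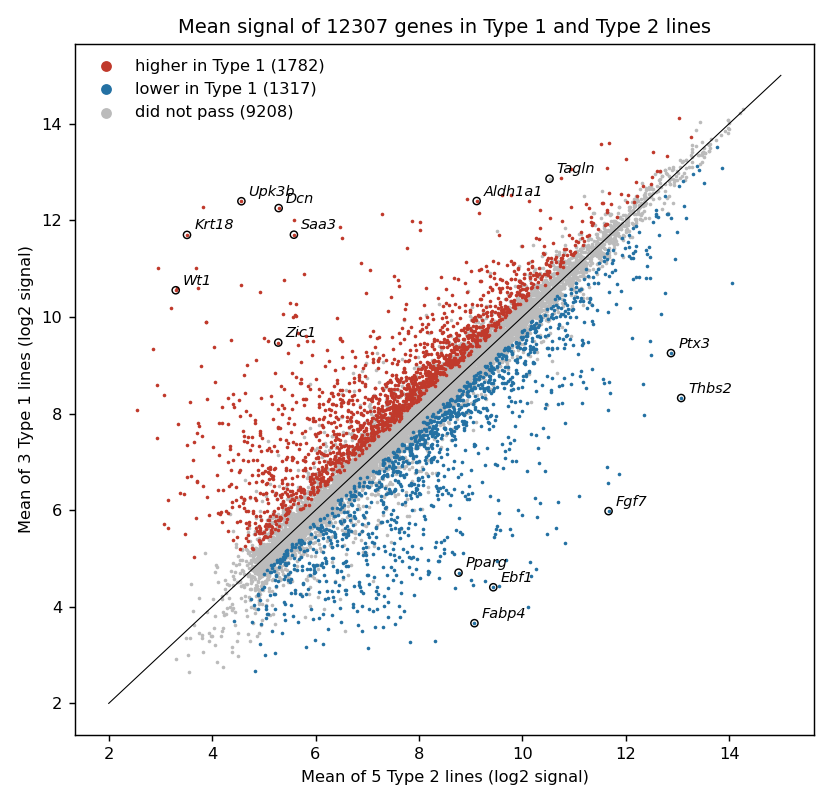
Mean log2 signal of the 3 Type 1 lines (vertical axis) against that of the 5 Type 2 lines (horizontal axis), 1 point per tested gene; red and blue points are the 1782 genes higher and the 1317 lower in Type 1, grey points did not pass, and the line marks equal means. Genes such as Krt18 and Wt1 lie far above the line and Fgf7 and Fabp4 far below it.

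Several mesothelial genes were far higher in Type 1. Of 25 genes listed as mesothelial surface, secreted or transcription factor genes, 20 were tested, 11 were higher and 3 lower, with a median difference of 2.56. Of the 20, Msln, Upk3b, Lrrn4, Rspo1, Krt8, Krt18, Krt7 and Wt1 entered the test only through the Type 1 lines in which they are high. The filter thus favoured a difference for these 8, and the count is no support by itself. Over all 24 members on the array, dim ones included, 17 had the higher mean in Type 1 and the median difference was 2.46. Between 11 and 12 passed as higher whichever line was left out, 7 with a stricter filter that tests fewer of them, and 11 passed against the single perigonadal Type 2 line. The count of lower members was 1 without SCF3-1 or PGF3-4. The list overlaps the marker the study chose on these lines and was drawn up with earlier results known. Wt1, a zinc-finger factor of mesothelium, kidney and gonad, read 10.6, 10.6 and 10.4 in Type 1 lines, against 3.40, 3.10, 3.04, 3.23 and 3.71 in Type 2 lines. No line of either type came near the other: the difference was 7.26 ± 0.38 (SE), or 153-fold (adjusted p = 2.29e-12). Krt18, a keratin of simple epithelia, read 12.3, 10.7 and 12.1 in Type 1 and 3.22 to 3.78 in Type 2, a difference of 8.18 ± 0.44 (adjusted p = 4.68e-12). Lrrn4, a leucine-rich repeat membrane protein, averaged 11.0 ± 0.287 in Type 1 and 2.96 ± 0.083 in Type 2 (SD, n = 3 and 5). The uroplakin Upk3b averaged 12.4 ± 0.204 in Type 1 and 4.57 ± 0.071 in Type 2, and its relative Upk1b 12.0 ± 0.266 in Type 1 and 5.59 ± 0.186 in Type 2. Both uroplakins thus varied by less than 1 log2 within a type and differed by more than 6 between them. Bnc1, the zinc-finger protein basonuclin, read 10.4 to 11.1 in Type 1 and was the least even of these genes in Type 2, at 3.31 to 5.83, with the perigonadal line PGF3-2 the highest.

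The mesothelial pattern had gaps. Msln, which encodes mesothelin, averaged 7.04 in Type 1, within a range of 5.27 to 8.87, and 3.63 in Type 2 (difference 3.41, adjusted p = 2.07e-06). Krt19, another simple-epithelial keratin, went the other way, at 4.97 to 6.37 in Type 1 and 7.19 to 8.83 in Type 2 (difference -2.29, adjusted p = 0.0360). The other lower members were Efemp1 (difference -1.915, adjusted p = 0.0065) and Igfbp5 (difference -3.339, adjusted p = 0.0263). Of the members that did not pass, Calb2, Cldn15, Cfb and Slurp1 had the lower mean in Type 1, and Aldh1a2 and Dpp4 the higher. Aldh1a2, which makes retinoic acid and is also used as a mesothelial marker, read 10.4, 4.98 and 6.94 in Type 1 and 4.80 to 9.12 in Type 2 and did not pass (difference 0.30, 95% interval -2.21 to 2.81). Muc16, Gpm6a, Cdh1 and Pkhd1l1 were too dim in too many lines to be tested. Muc16, a membrane mucin, read 4.97 to 8.04 in Type 1 and 3.10 to 3.28 in Type 2. Gpm6a, a membrane glycoprotein, read 3.67 to 10.6 in Type 1 and 3.02 to 3.37 in Type 2. Cdh1, which encodes E-cadherin, read 3.06 to 4.25 in Type 1 and 2.72 to 2.90 in Type 2, all low on the scale. Pkhd1l1 averaged 3.75 in Type 1 and 3.68 in Type 2. Keratins and junction proteins taken as 1 list of 30 gave 16 tested genes, of which 8 were higher and 13 further ones were left out as dim. Among the 8, Krt7, Krt8 and Krt18 entered the test only through the Type 1 lines. Krt19 was the 1 lower member, a call lost without SCF3-1, SCF3-11, PGF3-2, PGF2-8 or PGF3-4. Krt8, the usual partner of Krt18, read 11.1, 5.17 and 11.1 in Type 1, so that PGF3-4 lay next to the Type 2 lines at 4.57 to 5.01. F11r, a tight-junction adhesion molecule, read 12.2, 11.8 and 11.9 in Type 1 and 6.91 to 8.80 in Type 2 (difference 3.94 ± 0.43, adjusted p = 3.92e-07). The other F11r probe set differed by 0.196 and did not pass. The epithelial adhesion gene Epcam read 5.75 to 6.16 in Type 1 and 5.98 to 6.34 in Type 2 and did not pass (adjusted p = 0.437).

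The promoters printed below are a selection. Other promoters of the 15 genes furthest up in Type 1 lack the TEAD core described below and are left out. Krt18 is printed as the mesothelial gene with the largest difference. Lrrn4, Upk3b and Cd200 are printed because they hold that core, and Fgf7 for the opposite direction. They run from 250 bases before to 50 after the start, 5′ to 3′ on the gene's strand, from RefSeq on build GRCm38.p6. Capitals mark the letters GGAATG or their reverse complement, the core read by TEAD factors. Krt18 lies at chr15:102027966-102028265 on the plus strand, Lrrn4 at chr2:132880813-132881112 on the minus strand, Upk3b at chr5:136038246-136038545 on the plus strand, and Cd200 at chr16:45409004-45409303 on the minus strand. Fgf7, at chr2:126034408-126034707 on the plus strand, is the gene with the largest difference in the opposite direction.
Krt18: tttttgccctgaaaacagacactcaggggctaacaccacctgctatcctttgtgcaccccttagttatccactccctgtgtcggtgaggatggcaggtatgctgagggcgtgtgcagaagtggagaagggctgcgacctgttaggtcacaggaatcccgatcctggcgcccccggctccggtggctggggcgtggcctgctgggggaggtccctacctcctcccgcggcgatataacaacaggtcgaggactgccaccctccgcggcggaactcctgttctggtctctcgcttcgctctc
Lrrn4: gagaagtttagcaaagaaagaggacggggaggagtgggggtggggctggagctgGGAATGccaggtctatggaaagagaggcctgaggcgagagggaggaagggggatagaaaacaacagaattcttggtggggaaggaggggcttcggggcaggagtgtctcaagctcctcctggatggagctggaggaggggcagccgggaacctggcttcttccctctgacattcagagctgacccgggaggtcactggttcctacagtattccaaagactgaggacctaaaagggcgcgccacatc
Upk3b: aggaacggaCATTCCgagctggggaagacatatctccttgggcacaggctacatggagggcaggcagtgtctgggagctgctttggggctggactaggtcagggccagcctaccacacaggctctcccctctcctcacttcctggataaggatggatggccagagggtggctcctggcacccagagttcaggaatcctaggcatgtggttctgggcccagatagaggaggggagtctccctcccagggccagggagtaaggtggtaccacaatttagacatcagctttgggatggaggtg
Cd200: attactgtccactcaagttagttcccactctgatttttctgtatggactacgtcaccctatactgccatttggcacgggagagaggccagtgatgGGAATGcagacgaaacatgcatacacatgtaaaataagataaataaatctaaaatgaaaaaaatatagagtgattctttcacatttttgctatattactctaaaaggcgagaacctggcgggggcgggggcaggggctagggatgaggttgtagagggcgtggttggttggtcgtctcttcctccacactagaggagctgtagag
Fgf7: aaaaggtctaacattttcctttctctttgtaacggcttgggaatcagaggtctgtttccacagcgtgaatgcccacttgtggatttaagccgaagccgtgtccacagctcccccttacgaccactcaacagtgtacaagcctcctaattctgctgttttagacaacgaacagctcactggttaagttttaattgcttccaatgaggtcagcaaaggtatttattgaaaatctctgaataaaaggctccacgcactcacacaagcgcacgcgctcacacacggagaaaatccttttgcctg
Both strands were searched. Of the 15 genes with the largest difference in favour of Type 1, 11 have a promoter in the table, and Lrrn4, Upk3b and Cd200 hold the TEAD core, against 0 of 13 among the 15 genes with the largest difference in favour of Type 2. Over 27025 genes, 14.6% hold it. The letters GCGTGGG, a core shared by EGR and WT1 proteins, were in 0 of the 11 and 0 of the 13, with 4.92% over all genes. TGANTCA, the AP-1 core, was also in 0 of both sets, with 7.93% over all genes. A match describes letters in this window only.

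Beyond the mesothelial list, the genes furthest up in Type 1 had diverse roles. Stk26, a serine/threonine kinase, showed the largest difference of all, 8.46 ± 0.46, at 12.7, 11.9 and 12.2 in Type 1 against 3.24 to 4.55 in Type 2 (351-fold, adjusted p = 4.68e-12). Bmp4, a secreted growth factor of the BMP family, read 11.2, 11.1 and 10.8 in Type 1 and 3.32 to 3.96 in Type 2, a 161-fold difference. Cd200, a surface protein that binds an inhibitory receptor on myeloid cells, averaged 10.2 ± 0.109 in Type 1 and 3.21 ± 0.310 in Type 2. The Type 1 lines were nearly equal for both genes. Gabra4, a subunit of the GABA-A receptor, was even more alike among them, at 9.87, 9.90 and 9.94, against 2.87 to 4.90 in Type 2. Ddx4, the RNA helicase Vasa known from germ cells, read 6.86, 10.6 and 10.6 in Type 1 and 2.55 to 3.24 in Type 2, with PGF2-8 the low line. All Type 2 lines of Stk26, Gabra4 and Ddx4 read below the table median of 5.13. Whether these genes entered the test only through the Type 1 lines is not given here. Saa3, an acute-phase apolipoprotein, spread widest, at 14.5, 9.55 and 11.1 in Type 1 and 5.32 to 5.88 in Type 2 (difference 6.12 ± 1.25, adjusted p = 9.15e-04). Without PGF2-8 its difference was 4.74 (adjusted p = 0.0172), and against PGF3-2 alone it did not pass (adjusted p = 0.0522). Dcn, the small proteoglycan decorin that fibroblasts secrete, read 13.3, 11.2 and 12.2 in Type 1 and 4.28 to 6.00 in Type 2, a difference of 6.97 ± 1.34.

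**Figure D2:**
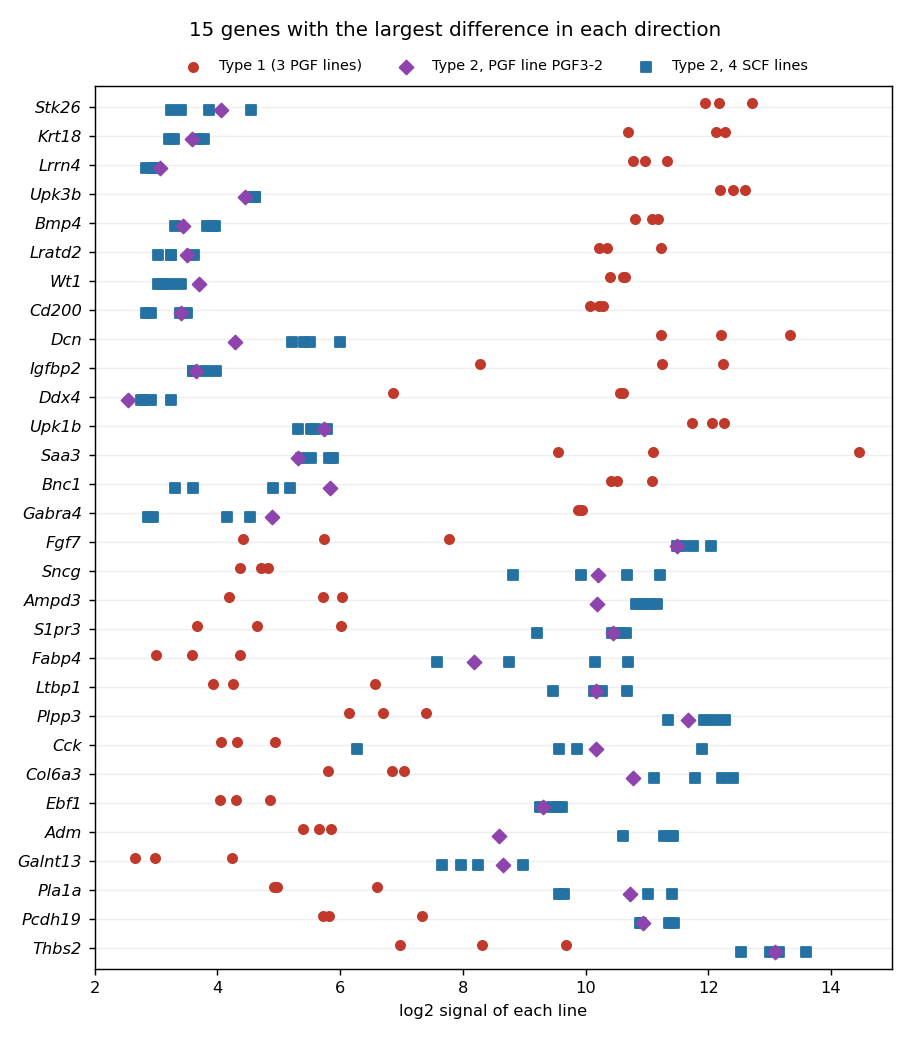
Log2 signal of each line (horizontal axis) for the 15 genes furthest up and the 15 furthest down in Type 1; red circles are the 3 Type 1 lines, the purple diamond is the perigonadal Type 2 line PGF3-2, and blue squares are the 4 subcutaneous Type 2 lines. PGF3-2 sits among the other Type 2 lines in most rows, and Adm, at 8.59, is an exception.

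The genes furthest down in Type 1 also had diverse roles. Fgf7, a growth factor that fibroblasts send to epithelia, read 4.42, 7.77 and 5.75 in Type 1, against 11.8, 12.0, 11.5, 11.6 and 11.5 in Type 2 (difference -5.69 ± 0.43, adjusted p = 1.57e-09). The Type 2 lines were within 1 log2 of each other, whereas the Type 1 lines spread over more than 3. Sncg, which encodes gamma-synuclein and is abundant in adipocytes, averaged 4.64 ± 0.241 in Type 1 and 10.2 ± 0.894 in Type 2. Ampd3, an AMP deaminase, averaged 5.32 ± 0.991 in Type 1 and 10.8 ± 0.381 in Type 2. Galnt13, which begins mucin-type O-glycosylation, read 2.66 to 4.24 in Type 1 and 7.67 to 8.98 in Type 2. Pcdh19, a protocadherin, read 5.72 to 7.34 in Type 1 and 10.9 to 11.4 in Type 2. Cck, which encodes the peptide cholecystokinin, was uneven in Type 2: it read 4.05, 4.32 and 4.94 in Type 1 lines and 11.9, 9.86, 6.28, 9.56 and 10.2 in Type 2 lines, with SCF3-8 low (difference -5.12 ± 1.34, adjusted p = 0.00726). PGF3-2, at 10.2, lay within the range of the other Type 2 lines for Cck.

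Transcription factors that pattern the body differed in both directions. On the list of 22 lateral plate and visceral factors 15 were tested, 6 were higher and 2 lower (1 lower without PGF2-8 or SCF3-1). Over all genes tested 14.5% were higher and 10.7% lower. The median difference was 0.508, and over all 20 on the array, dim ones included, it was 0.193. Wt1, Gata4 and Hand2 entered the test only through the Type 1 lines, and Wt1 and Hand2 are among the 6 higher. Wt1 and Bnc1 are also on the mesothelial list. Gata6, a factor of visceral mesoderm and endoderm, read 11.2, 11.0 and 11.1 in Type 1 and 6.37 to 7.46 in Type 2 (difference 4.23 ± 0.31, adjusted p = 1.13e-09). Hand2, a heart and limb factor, read 9.71, 7.82 and 9.51 in Type 1 and 6.71, 4.37, 3.91, 4.14 and 4.20 in Type 2, where SCF1-23 was the high line. Only 1 of the 3 Hand2 probe sets passed, and the smallest difference was 0.060. Osr1, a factor of lateral plate and intermediate mesoderm, went down despite its place on this list, to 4.41 to 5.47 in Type 1 against 8.59 to 9.23 in Type 2. Tbx18 and Bnc2 did not pass, with 95% intervals of -0.76 to 0.24 for Tbx18 and -0.53 to 1.10 for Bnc2.

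Limb and body wall factors were lower in Type 1 for most of those tested. Of 31 listed, 16 were tested and 13 were too dim; 10 were lower and 3 higher, with a median difference of -1.63. Over all 29 on the array, dim ones included, the median was -0.187. Shox2, a limb homeobox gene, read 3.83, 6.39 and 4.64 in Type 1 lines, against 9.43, 9.68, 9.40, 9.16 and 9.87 in Type 2 lines (difference -4.55 ± 0.48, adjusted p = 2.82e-07). Prrx1, a homeobox gene of limb and craniofacial mesenchyme, averaged 8.63 ± 0.270 in Type 1 and 11.6 ± 0.487 in Type 2. Its relative Prrx2 averaged 4.96 ± 0.338 in Type 1 and 8.39 ± 1.14 in Type 2. Twist2, Pax3, Tbx15, Irx3, Irx5, Twist1 and Msx2 were the others that fell, by 0.77 (Twist1) to 2.68 (Twist2) on the log2 scale. Zic1, a zinc-finger factor of the dorsal neural tube and somites, was higher, but it split Type 2: the Type 1 lines read 9.18, 9.21 and 10.0, and the Type 2 lines 2.82, 8.81, 2.67, 9.19 and 2.90. SCF3-1 and SCF3-11 were thus near Type 1 and the other 3 at the bottom of the scale. Its difference of 4.19 ± 1.08 passed over all lines (adjusted p = 0.00635) and missed when only the 8 lines were fitted (adjusted p = 0.106).

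Hox genes record position along the body axis. Of 39 listed, 20 were tested, 2 were higher and 4 lower, with a median difference of 0.091. Over all genes tested 14.5% were higher and 10.7% lower. Without PGF2-8 the counts were 1 and 2, and without SCF3-1, SCF3-8 or PGF3-2 the count of higher genes was 1. Hoxc13 read 6.23, 6.57 and 6.46 in Type 1 and 7.25 to 7.87 in Type 2 (difference -1.11 ± 0.23, adjusted p = 9.53e-04). Hoxd9 read 5.89, 6.00 and 6.00 in Type 1 and 4.79 to 5.17 in Type 2 (difference 0.97 ± 0.23, adjusted p = 0.00288). Hoxc10 fell by 1.09 on the log2 scale with all lines (adjusted p = 0.00439) and did not pass without PGF2-8 (adjusted p = 0.0684). Hoxc8 and Hoxc9, the most abundant that did not pass, had 95% intervals of -0.13 to 0.94 for Hoxc8 and -0.40 to 0.54 for Hoxc9.

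Several adipogenic transcription factors were lower in Type 1, Pparg among them. On this list of 28 genes 27 were tested, 16 did not pass, 9 were lower and 2 higher (1 higher without PGF2-8), with a median difference of -0.627. Pparg, the nuclear receptor that drives fat cell formation, read 4.17, 5.73 and 4.22 in Type 1 lines, against 9.02, 8.51, 9.20, 8.62 and 8.49 in Type 2 lines. The difference was -4.06 ± 0.48, or 16.7-fold lower (adjusted p = 1.53e-06), and the ranges lay almost 3 log2 apart. Cebpa, its partner in adipogenesis, averaged 5.21 ± 0.394 in Type 1 and 8.04 ± 0.579 in Type 2 (adjusted p = 7.60e-04, and 0.0512 against PGF3-2 alone). Of the early B-cell factors, which act upstream of Pparg, Ebf1 averaged 4.40 ± 0.413 in Type 1 and 9.44 ± 0.152 in Type 2. Its relative Ebf2, known for brown fat precursors, read 2.85, 4.54 and 3.33 in Type 1 and 7.48, 4.74, 8.20, 7.83 and 8.26 in Type 2, with SCF3-1 next to Type 1. Ebf3 and Zfp423, a zinc-finger regulator of preadipocyte commitment, fell too, by 3.20 (Ebf3) and 2.80 (Zfp423) on the log2 scale. Ppargc1b, a coactivator of mitochondrial genes, was the main exception, at 8.68, 8.53 and 8.53 in Type 1 and 4.99 to 5.52 in Type 2 (difference 3.24 ± 0.20, adjusted p = 3.41e-11). Cebpb, which acts early in adipogenesis, read 11.0 to 11.2 in Type 1 and 10.8 to 11.7 in Type 2 (difference -0.01, 95% interval -0.56 to 0.53).

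Genes of lipid uptake and storage did not move as a block. Of 34 listed, 22 were tested, 4 were higher and 5 lower, with a median difference of -0.136, and 8 were too dim, among them Adipoq, which encodes adiponectin and averaged 3.21 in Type 1 and 3.14 in Type 2. The count of lower genes was 3 without PGF2-8, PGF3-11, SCF1-23, SCF3-11 or PGF3-2, and that of higher genes 2 without PGF2-8. Fabp4, the adipocyte fatty acid-binding protein, read 3.60, 4.38 and 3.01 in Type 1 lines, against 10.2, 7.58, 10.7, 8.76 and 8.19 in Type 2 lines (difference -5.41 ± 0.86, adjusted p = 6.73e-05). Its relative Fabp5 averaged 7.81 ± 0.090 in Type 1 and 10.8 ± 0.223 in Type 2. Plin4, a lipid droplet protein, read 5.38 to 6.03 in Type 1 and 7.16 to 9.55 in Type 2, with SCF1-23 and SCF3-8 the high lines. Against PGF3-2 alone, Plin4 did not pass (adjusted p = 0.429). Mgll, which breaks down monoglycerides, was higher, at 7.08 to 7.49 in Type 1 and 5.14 to 5.73 in Type 2. Lpl, the lipoprotein lipase, was abundant in both and did not pass, at 12.6, 11.7 and 12.4 in Type 1 and 11.4 to 13.1 in Type 2 (95% interval -1.13 to 1.11).

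Scores that the study gave each line after induction can be set beside these genes. The differentiation score, from 1 to 4 and based on Oil Red O staining of lipid, was 2, 2 and 2 in Type 1 and 2, 4, 2, 2 and 4 in Type 2. Its means were 2.00 ± 0 in Type 1 and 2.80 ± 1.10 in Type 2 (SD), and the difference of -0.80 was not larger than the spread (exact two-sided permutation test, p = 0.714). Every Type 1 line shared its score with 3 Type 2 lines. The media acidification score, for which the labels do not say whether 4 is more or less acid, was 4, 4 and 2 in Type 1 and 4, 4, 2, 4 and 1 in Type 2 (exact two-sided permutation test, p = 1.00). With these tied scores the smallest two-sided p that 3 against 5 lines can reach is 0.214 for differentiation and 0.0357 for acidification, so the differentiation score could not have passed.

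The surface markers used for preadipocytes did not share a direction. Of 25 listed, 21 were tested, 4 were higher (2 without PGF2-8, PGF3-11 or SCF3-8) and 2 lower, beside 14.5% higher and 10.7% lower over all genes tested. Pdgfrb, a PDGF receptor of mesenchymal cells, averaged 8.93 ± 0.160 in Type 1 and 11.3 ± 0.223 in Type 2 (difference -2.41 ± 0.27, adjusted p = 5.81e-07). Pdgfra, the receptor most used to sort adipocyte progenitors, read 11.5, 8.49 and 9.39 in Type 1 and 10.1 to 11.8 in Type 2, and it did not pass (adjusted p = 0.281). Cd34, a sialomucin of progenitors, read 8.92, 9.43 and 10.2 in Type 1 lines, against 4.03, 6.78, 3.49, 4.81 and 6.34 in Type 2 lines. All Type 1 lines exceeded all Type 2 lines, and the difference was 4.42 ± 1.31 (adjusted p = 0.0157, and 0.0653 without PGF3-11). Vcam1, an adhesion molecule for leukocytes, averaged 12.4 ± 0.473 in Type 1 and 10.1 ± 0.514 in Type 2 (adjusted p = 1.19e-05). Dlk1, known as preadipocyte factor 1, did not pass (difference -0.16, 95% interval -1.73 to 1.42).

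Tagln and Mx1, the study's markers of Types 2 and 3, did not pass here, and both means were higher in Type 1. Tagln, the actin-binding protein transgelin of smooth muscle, read 12.3, 13.1 and 13.2 in Type 1 lines, against 10.8, 11.0, 9.24, 11.3 and 10.3 in Type 2 lines. The lines did not overlap, but the difference of 2.33 ± 0.91 had an adjusted p of 0.0635 over all lines and 0.00596 when only these 8 lines were fitted. For comparison, the median of Tagln in Type 3 was 8.45. Mx1, an interferon-induced antiviral GTPase, read 8.51, 6.72 and 7.09 in Type 1 and 3.98 to 6.54 in Type 2 (difference 2.36 ± 1.14, adjusted p = 0.138, and 0.0269 with these 8 lines alone). Smooth muscle contractile genes as a list of 23 had 21 tested, 3 higher (1 without PGF3-4 or PGF3-11) and 3 lower (1 without PGF2-8, SCF1-23 or SCF3-11). The shares among all genes tested were 14.5% higher and 10.7% lower. Smtn, the cytoskeletal protein smoothelin, rose to 8.32 to 8.95 in Type 1, against 6.51 to 6.85 in Type 2. Acta2, smooth muscle actin, read 12.1, 13.4 and 13.4 in Type 1 and 12.5 to 13.2 in Type 2 (95% interval -1.49 to 1.90).

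Extracellular matrix genes fell more often than they rose. Of 31 tested collagen and crosslinking genes 11 were lower and 4 higher (median -0.378), and of 38 tested glycoproteins and proteoglycans 13 were lower and 4 higher (median -0.719). The shares among all genes tested were 10.7% lower and 14.5% higher. Without PGF3-11 the count of lower collagen genes was 7, and without PGF3-11 or PGF3-4 that of higher ones was 2. Col6a3, a chain of the beaded-filament collagen VI, read 7.04, 6.85 and 5.81 in Type 1 lines, against 11.1, 11.8, 12.4, 12.2 and 10.8 in Type 2 lines (difference -5.10 ± 0.72, adjusted p = 1.57e-05). Col8a2, a network-forming collagen, was the reverse case, at 9.09, 7.95 and 8.71 in Type 1 and 2.81 to 3.09 in Type 2 (difference 5.65 ± 0.16, adjusted p = 1.01e-16). Col4a6, a basement membrane chain, was also higher, at 7.45 to 7.74 in Type 1 and 4.69 to 5.20 in Type 2. Col1a2, a main fibrillar chain, read 13.3 to 13.7 in Type 1 and 12.3 to 13.9 in Type 2 and did not pass (95% interval -0.36 to 0.75). Ltbp1, which anchors latent TGF-beta in the matrix, read 3.94, 6.57 and 4.25 in Type 1 and 9.47 to 10.7 in Type 2. Thbs2, a thrombospondin of connective tissue, read 8.31, 9.69 and 6.97 in Type 1 and 12.5 to 13.6 in Type 2. The Type 1 lines were the more variable for both genes, as they were for Fgf7. Sparc, a collagen-binding glycoprotein, read 13.3 to 13.4 in Type 1 and 13.2 to 13.5 in Type 2, with an interval of -0.17 to 0.25.

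Proteases and integrins were mixed. Of 29 tested proteases and inhibitors 6 were higher and 8 lower, and of 13 tested integrins 6 were higher and 2 lower. Among all genes tested, 14.5% were higher and 10.7% lower. Both lower integrin calls were lost without PGF2-8, and 1 of them without SCF3-8, SCF3-11 or PGF3-2. Mmp13, an interstitial collagenase, read 6.82, 9.66 and 8.65 in Type 1 and 2.76 to 3.40 in Type 2 (difference 5.31 ± 0.86, adjusted p = 8.37e-05). Ctsk, the collagen-cleaving cathepsin K, went down, to 4.40, 6.27 and 4.26 in Type 1 lines, against 10.1, 9.97, 9.89, 10.1 and 8.36 in Type 2 lines. Serpinf1, which encodes the secreted serpin PEDF, averaged 8.62 ± 0.496 in Type 1 and 12.3 ± 0.189 in Type 2. Among integrin chains, Itgb8, which takes part in TGF-beta activation, averaged 8.28 ± 0.333 in Type 1 and 4.52 ± 0.317 in Type 2. The collagen receptor chain Itga1 averaged 8.30 ± 0.108 in Type 1 and 5.82 ± 0.355 in Type 2, and the laminin receptor chain Itga7 7.33 ± 0.149 in Type 1 and 4.90 ± 0.301 in Type 2. Their common partner Itgb1 did not pass (difference 0.21, 95% interval -0.09 to 0.52).

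Secreted signals and their antagonists differed in both directions. In the BMP and TGF-beta list of 39 genes, 29 were tested, 7 were higher (4 without PGF2-8) and 6 lower, beside 14.5% and 10.7% over all genes tested. Bmp4 and Bmper, a secreted modulator of BMPs, were higher, Bmper at 11.2 to 11.7 in Type 1 and 6.95 to 8.67 in Type 2. Grem1, a secreted BMP antagonist, was lower, at 4.59, 7.57 and 5.40 in Type 1 lines, against 11.3, 9.15, 10.3, 10.8 and 9.84 in Type 2 lines (difference -4.44 ± 0.64, adjusted p = 2.38e-05). Gdf10, a BMP-related ligand, read 4.18, 5.49 and 7.32 in Type 1 and 8.18 to 10.5 in Type 2. Id3, a target gene of BMP signalling, did not pass (difference 0.29, 95% interval -0.97 to 1.56).

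In the Wnt list of 41 genes, 5 were higher and 1 was lower of 35 tested (2 lower without PGF3-4, SCF1-23 or SCF3-8), where 14.5% of all genes tested were higher. Of the 5, Wnt9a, Rspo1, Frzb and Ror1 entered the test only through the Type 1 lines in which they are high, so the count is no support by itself. Rspo1, a secreted enhancer of Wnt signalling, read 10.9, 9.34 and 9.43 in Type 1 and 3.76 to 3.98 in Type 2 (difference 6.01 ± 0.22, adjusted p = 6.62e-15). Axin2, a widely used Wnt target gene, read 6.42 to 7.04 in Type 1 and 4.94 to 5.03 in Type 2 (difference 1.80, adjusted p = 1.57e-09). Frzb, a secreted Wnt antagonist, read 5.31, 6.46 and 7.48 in Type 1 and 3.96 to 4.34 in Type 2. Of 18 tested FGF and PDGF genes 5 were higher (3 without PGF2-8 or PGF3-4) and 4 lower. Fgfr2, whose epithelial form binds Fgf7, averaged 8.58 ± 0.380 in Type 1 and 6.96 ± 0.451 in Type 2, opposite in direction to its ligand. Only 1 of the 3 Fgfr2 probe sets passed, and the smallest difference was 0.148. Dusp6, a phosphatase induced by ERK signalling, averaged 11.1 ± 0.339 in Type 1 and 8.92 ± 0.768 in Type 2.

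The IGF axis held several large differences, while the median difference of its list was -0.055. Of 19 tested genes 5 were higher and 3 lower (1 lower without SCF1-23), beside 14.5% higher and 10.7% lower over all genes tested. Igf1, the ligand, read 10.8, 9.84 and 10.3 in Type 1 lines, against 4.86, 5.22, 5.14, 6.88 and 5.41 in Type 2 lines (difference 4.79 ± 0.92, adjusted p = 4.87e-04). Igfbp2, a secreted binding protein, read 11.2, 8.29 and 12.2 in Type 1 and 3.60 to 3.98 in Type 2, with PGF3-4 the low Type 1 line. Igfbp2 entered the test only through the Type 1 lines. Igfbp3, the main carrier of IGF in blood, read 10.8 to 12.7 in Type 1 and 5.29 to 7.77 in Type 2. Igfbp5 ran the other way, with means of 5.50 in Type 1 and 8.84 in Type 2, although the ranges overlapped. The adaptor Irs1 did not pass (95% interval -1.07 to 0.09).

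Every lysophospholipid and sphingosine 1-phosphate gene that passed was lower, 8 of 13 tested with a median difference of -1.15, and 7 or 8 passed whichever line was left out. S1pr3, a receptor for sphingosine 1-phosphate, read 3.67, 4.64 and 6.01 in Type 1 lines, against 10.5, 10.7, 9.21, 10.4 and 10.4 in Type 2 lines (difference -5.48 ± 0.76, adjusted p = 1.38e-05). Its relative S1pr1 averaged 4.28 ± 0.645 in Type 1 and 7.65 ± 0.588 in Type 2. Plpp3, which removes the phosphate from such lipids outside the cell, averaged 6.74 ± 0.632 in Type 1 and 11.9 ± 0.363 in Type 2. Pla1a, a phospholipase that releases lysophosphatidylserine, averaged 5.51 ± 0.957 in Type 1 and 10.5 ± 0.827 in Type 2. The intracellular enzymes Sgpp1 and Sgpl1 did not pass, with intervals of -0.93 to 0.01 for Sgpp1 and -0.33 to 0.41 for Sgpl1.

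Guidance molecules included 7 higher and 4 lower (2 without PGF2-8) of 29 tested, beside 14.5% higher and 10.7% lower over all genes tested. Sema3d, a secreted semaphorin, read 9.12, 9.74 and 9.73 in Type 1 and 3.65 to 5.12 in Type 2 (difference 5.16 ± 0.74, adjusted p = 1.92e-05). Plxna2, a semaphorin receptor, averaged 5.20 ± 0.087 in Type 1 and 7.49 ± 0.539 in Type 2. A list of YAP and TAZ, the effectors of the Hippo pathway, with their TEAD partners and targets had 4 higher and 3 lower (1 without PGF2-8) of 20 tested, all by under 1.2 log2. Wwtr1, which encodes TAZ itself, and Tead1 were among the 4 higher, so this is not a count of targets alone. Ccn2, a widely used YAP target, did not pass and was low in PGF3-2 alone, at 9.82 against 11.5 to 11.9 in the subcutaneous Type 2 lines and 11.9 to 12.4 in Type 1.

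In retinoid metabolism, the related genes Aldh1a1 and Aldh1a7 changed in opposite directions. Aldh1a1, a retinaldehyde dehydrogenase, read 12.7, 12.4 and 12.1 in Type 1 lines, against 10.3, 9.60, 9.61, 8.69 and 7.41 in Type 2 lines (difference 3.28 ± 0.81, adjusted p = 0.00439). Aldh1a7, a rodent gene of close sequence, read 4.34, 3.76 and 5.54 in Type 1 lines, against 10.3, 8.94, 10.0, 8.11 and 7.67 in Type 2 lines (difference -4.45 ± 0.87, adjusted p = 5.72e-04). Probes may be shared by such close relatives, and this was not tested. Of 18 genes tested on the list, 1 was higher and 2 were lower, beside 14.5% higher and 10.7% lower over all genes tested.

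Cytokine genes fell more often than they rose, with 7 lower and 3 higher of 26 tested and a median difference of -0.508. Among all genes tested, 10.7% were lower and 14.5% higher. Ccl8, a monocyte chemokine, read 6.98, 5.64 and 5.07 in Type 1 lines, against 9.50, 11.5, 10.3, 9.15 and 9.52 in Type 2 lines (difference -4.10 ± 0.82, adjusted p = 7.92e-04, and 0.0954 against PGF3-2 alone). Ptges, a prostaglandin E synthase, averaged 4.72 ± 0.412 in Type 1 and 8.19 ± 0.240 in Type 2. Il33, a nuclear alarmin that mesothelial cells of visceral fat are known to make, was higher, at 8.98, 8.42 and 7.54 in Type 1 and 3.75 to 4.67 in Type 2 (difference 4.00 ± 0.39, adjusted p = 9.06e-08). Ccl2 did not pass (95% interval -0.60 to 1.11). Among complement and acute-phase genes, with 2 higher (1 without PGF2-8) and 2 lower of 14 tested, the pentraxin Ptx3 fell to 8.12, 10.1 and 9.56 in Type 1, against 12.5 to 13.1 in Type 2. The other Ptx3 probe set differed by -0.801 and did not pass.

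Of the type I interferon effectors, 5 of 26 tested passed, all of them higher, with a median difference of 0.598; over all genes tested 25.2% passed, 14.5% as higher. Without PGF2-8 the count was 2, and without PGF3-4, SCF1-23 or PGF3-2 it was 3. Rsad2, the antiviral enzyme viperin, read 13.1, 12.1 and 12.2 in Type 1 lines, against 7.89, 9.92, 10.1, 9.56 and 7.25 in Type 2 lines (difference 3.51 ± 0.96, adjusted p = 0.00929, and 0.0553 without PGF2-8). Ifit2, an interferon-induced RNA-binding protein, averaged 11.7 ± 0.581 in Type 1 and 9.55 ± 0.403 in Type 2 (adjusted p = 0.00418, and 0.0408 without PGF2-8). All lines were exposed to interferon-gamma in culture. Of 27 genes tested from its response, 6 were higher and 1 lower with no overlap of lines, where 32.1% of all genes had none, and H2-K1, a class I antigen-presenting molecule, was the only one of the 27 to pass (difference 0.45 ± 0.13, adjusted p = 0.0141, and 0.129 without PGF2-8). Cd274, the inhibitory ligand PD-L1, did not pass, at 8.98 to 9.38 in Type 1 and 7.42 to 8.43 in Type 2 (difference 1.18, adjusted p = 0.0820). Iigp1, an interferon-gamma-induced GTPase near the top of the scale, read 14.0 to 14.1 in Type 1 and 13.8 to 14.1 in Type 2.

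Glycolysis genes had 6 higher and 5 lower of 22 tested, and against PGF3-2 alone 1 passed, as lower. Pdk4, which restrains pyruvate oxidation, averaged 4.27 ± 0.518 in Type 1 and 7.21 ± 0.357 in Type 2 (adjusted p = 1.85e-04). Slc2a3, a glucose transporter, averaged 8.62 ± 0.273 in Type 1 and 6.41 ± 0.918 in Type 2, while 1 of its 4 probe sets had the opposite sign. The lactate dehydrogenase subunits differed in direction: Ldhb averaged 10.5 in Type 1 and 8.64 in Type 2, and Ldha 11.7 in Type 1 and 12.6 in Type 2. Respiratory chain and cholesterol synthesis genes gave few calls. Sdhb was the only one of 29 respiratory genes to pass (difference 0.31 ± 0.09, adjusted p = 0.0195), and it missed without PGF3-4 (0.0670) or PGF3-11 (0.0826). Hsd17b7 was the only one of 18 cholesterol genes to pass (difference -0.87 ± 0.20, adjusted p = 0.00213).

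Cell cycle genes had 7 higher and 6 lower of 31 tested, and without PGF2-8 these counts were 2 and 3. Among all genes tested, 14.5% were higher and 10.7% lower. Ccnd1, which encodes cyclin D1 and links growth signals to cell cycle entry, read 5.41, 9.54 and 9.29 in Type 1 lines, against 11.4, 12.3, 11.3, 11.6 and 11.6 in Type 2 lines. PGF2-8 was about 4 log2 below its fellow Type 1 lines. The difference was -3.58 ± 0.69 (adjusted p = 5.57e-04), and it passed without PGF2-8 too (adjusted p = 0.00664). Cdkn1a, the p53-induced inhibitor p21, read 7.28, 9.82 and 9.03 in Type 1 and 11.2 to 12.0 in Type 2 (difference -2.85 ± 0.36, adjusted p = 3.87e-06). Pcna and Cdc20, genes of dividing cells, did not pass, with intervals of -0.03 to 0.46 for Pcna and -0.55 to 0.44 for Cdc20.

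Defining markers of cells outside the preadipocyte lineage were dim for some genes and not for others. Each array read a line grown from 1 cell, so a level is an average over the cells of that line. Of 17 leukocyte genes on the array 6 stayed below the table median in all 8 lines, among them Ptprc, Adgre1 and Itgam, and the mean of all 17 was 5.03 to 5.22 in Type 1 and 5.49 to 5.72 in Type 2. Csf1r and Cd53, a macrophage growth factor receptor and a leukocyte tetraspanin, were nevertheless lower in Type 1. Csf1r read 5.98, 7.87 and 7.07 in Type 1 lines, against 11.3, 8.93, 10.5, 10.3 and 10.6 in Type 2 lines (difference -3.35 ± 0.76, adjusted p = 0.00232). Cd53 read 4.38 to 5.90 in Type 1 and 6.78 to 10.5 in Type 2 (adjusted p = 0.0351, and 0.139 without PGF2-8), a call also lost without PGF3-11, SCF1-23, SCF3-1 or PGF3-2. Endothelial genes were below the table median in all 8 lines for 9 of 16, including Pecam1 and Cdh5, and their mean was 4.71 to 4.75 in Type 1 and 4.52 to 4.77 in Type 2. Kdr, a VEGF receptor, averaged 8.29 ± 0.684 in Type 1 and 6.26 ± 0.462 in Type 2. For skeletal muscle, 9 of 14 genes stayed below the table median, Myod1, Myog and Pax7 among them. For pericytes it was 5 of 11, with Rgs5 and Kcnj8, and Notch3 averaged 5.22 ± 0.146 in Type 1 and 6.91 ± 0.598 in Type 2. In the Schwann and neural list 3 of 10 genes were below the table median in all 8 lines. Mbp, which encodes myelin basic protein and shares its locus with other transcripts, read 10.8, 10.1 and 9.91 in Type 1 and 5.21 to 6.16 in Type 2, with 1 of its 8 probe sets of opposite sign. Sox10, the Schwann cell factor, read 5.89 to 6.15 in Type 1 and 6.04 to 6.52 in Type 2.

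**Figure D3:**
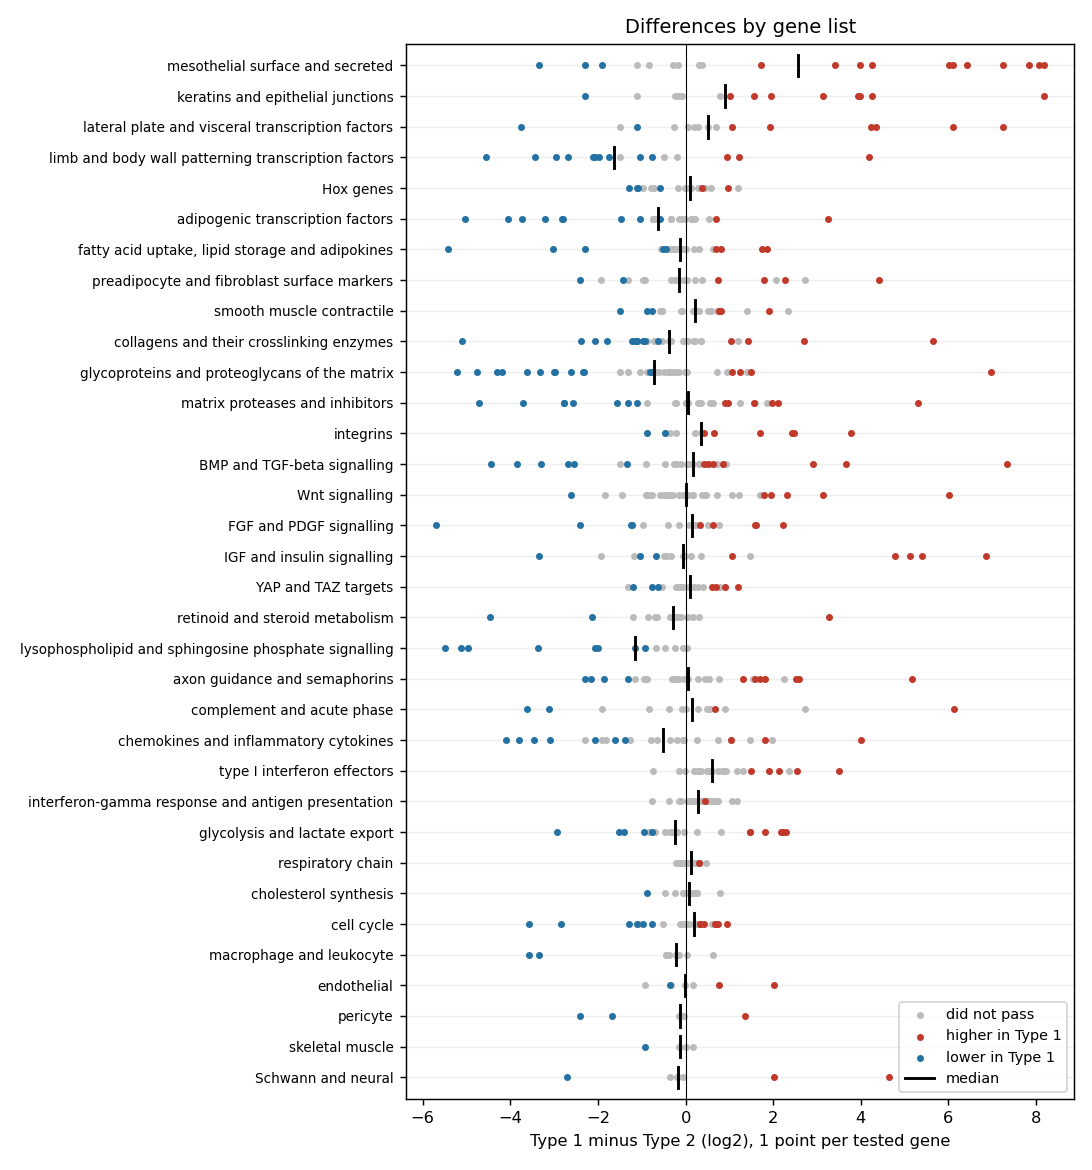
Difference between Type 1 and Type 2 (log2, horizontal axis) of every tested member of 34 gene lists (rows); red points passed as higher, blue points as lower and grey points did not pass, and black bars are medians. Among tested members the median is 2.56 in the mesothelial list and -1.63 in the limb and body wall list.

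The lines of a type were not interchangeable. Of the genes tested, 201 spanned at least 2 log2 within Type 1, and PGF2-8 was the line furthest from the other Type 1 lines in 132 of these (65.7%), PGF3-4 in 47 and PGF3-11 in 22. In Type 2, 326 genes had such a span, and the line furthest from the rest was spread more evenly, with 50 genes for SCF1-23, 83 for SCF3-1, 76 for SCF3-8, 50 for SCF3-11 and 67 for PGF3-2. Cd24a, a surface mucin, read 3.66 in PGF2-8, 11.1 in PGF3-4 and 9.97 in PGF3-11, and 8.34 to 11.4 in Type 2. Hoxa9 was likewise low in PGF2-8, at 3.84 against 9.58 and 9.59 in the other Type 1 lines, and it read 6.58 in SCF3-1 and 8.94 to 9.47 in the other Type 2 lines. Apoe, the lipid carrier apolipoprotein E, was low in PGF3-4, at 4.21 against 9.73 and 8.69, and read 4.14 to 5.03 in Type 2. PGF3-4 thus matched the Type 2 lines for Apoe as it did for Krt8. In Type 2, Rpl39l, a ribosomal protein copy known from testis, read 11.0 in SCF1-23 and 3.13 to 3.50 in the other lines, with 3.23 to 3.51 in Type 1. Rps4l, a copy of a ribosomal protein gene, was high in lines of both types, at 11.2 in PGF2-8 and at 8.47, 9.40 and 10.8 in SCF3-1, SCF3-8 and SCF3-11, and low in the rest. Both are copies of other ribosomal protein genes, so shared probe signal was not tested. Cavin2, a caveolar coat protein, was low in SCF3-8 only, at 5.47 against 9.77 to 11.8 in the other Type 2 lines.

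**Figure D4:**
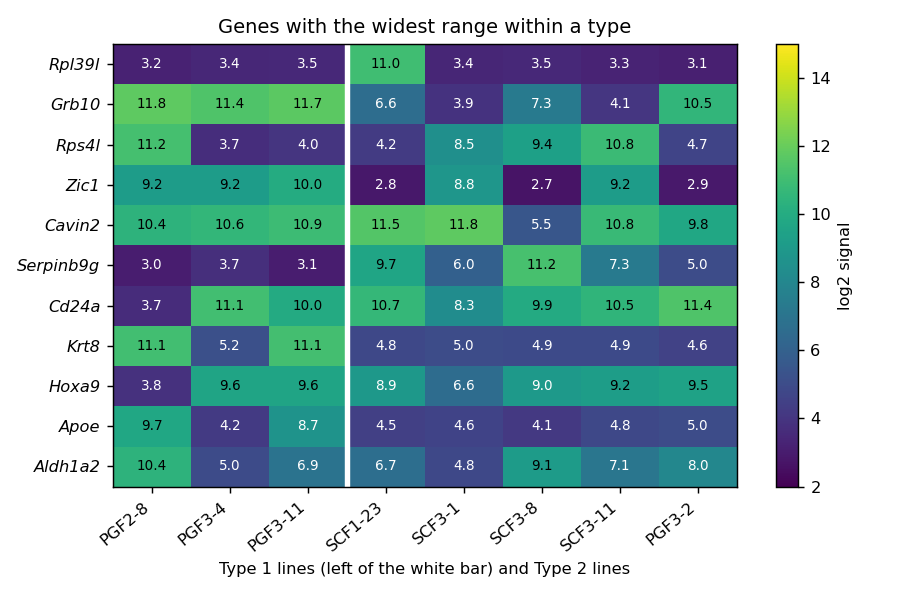
Log2 signal (colour and printed value) of the genes with the widest range within a type, for the 3 Type 1 lines (left of the white bar) and the 5 Type 2 lines. Single lines stand out, such as SCF1-23 for Rpl39l at 11.0 and PGF2-8 for Hoxa9 at 3.84.

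Depot and type overlap in these lines, so the perigonadal Type 2 line PGF3-2 was read for itself. Among the 3099 genes that passed, PGF3-2 lay within the range of the 4 subcutaneous Type 2 lines in 1523 (49.1%), beyond it towards Type 1 in 863 (27.8%) and beyond it away from Type 1 in 713 (23.0%). PGF3-2 reached the Type 1 range in 131. These genes were called with PGF3-2 in the Type 2 mean, and the same shares over all genes tested were not worked out. The counts therefore only describe the called genes. Against PGF3-2 alone, 1111 genes passed, 590 higher and 521 lower, and 1024 of these were among the 3099. Over all genes tested, the 4 perigonadal lines were above the 4 subcutaneous lines in 1046 and below them in 640, a pattern described here with no test. Grb10, an imprinted adaptor that restrains insulin and IGF signalling, read 11.8, 11.4 and 11.7 in Type 1 and 10.5 in PGF3-2, against 6.65, 3.93, 7.35 and 4.08 in the subcutaneous lines. Tubb2b, a beta-tubulin, read 9.85 to 10.3 in Type 1 and 7.19 in PGF3-2, against 4.34 to 5.32 in the subcutaneous lines. Gsta4, a glutathione transferase for lipid aldehydes, read 10.3 to 11.5 in Type 1 and 10.1 in PGF3-2, against 7.91 to 8.64 in the subcutaneous lines. In the opposite direction, Adm, the vasodilator peptide adrenomedullin, read 5.39 to 5.86 in Type 1 and 8.59 in PGF3-2, against 10.6 to 11.4 in the subcutaneous lines. Ctsk and Prg4, the joint lubricant lubricin, also had PGF3-2 between the types, Prg4 at 8.50 in PGF3-2, 4.86 to 7.99 in Type 1 and 9.77 to 11.4 in the subcutaneous lines. Of the mesothelial genes, Wt1 read 3.71 in PGF3-2, above the 3.04 to 3.40 of the subcutaneous lines and far below the 10.4 to 10.6 of Type 1. Bnc1 read 5.83 in PGF3-2, the highest of the Type 2 lines, and its difference against that line alone was 4.84 (adjusted p = 0.0134), against 6.10 over all lines. For Grb10, Gsta4 and Prg4 the difference from PGF3-2 alone did not pass (adjusted p = 0.795, 0.771 and 0.549). Other genes described above passed over all lines and not against PGF3-2 alone. They were Cck, Cd34, Hoxc10, Gdf10, Dusp6, Aldh1a7, Ifit2, H2-K1, Pdk4, Slc2a3, Sdhb, Hsd17b7, Ccnd1, Cd53, Csf1r, Apoe and Tubb2b. With 1 line on that side the standard error is wider, so a lost call does not by itself place PGF3-2 nearer Type 1. For Cck, Csf1r and Ccnd1, PGF3-2 read within the range of the subcutaneous lines.

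**Figure D5:**
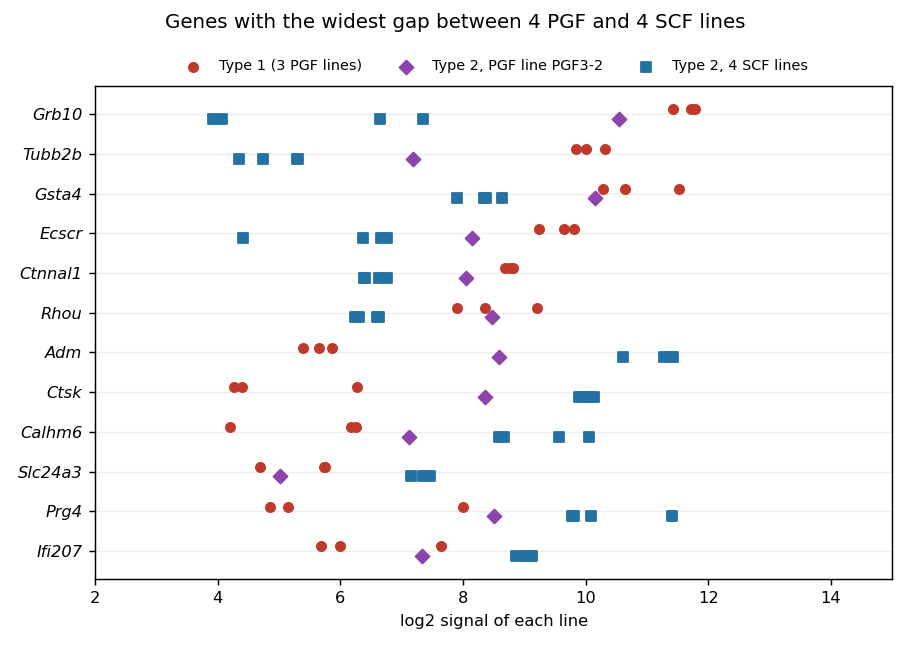
Log2 signal of each line (horizontal axis) for the 6 genes in each direction with the widest gap between the 4 perigonadal and the 4 subcutaneous lines; red circles are Type 1 lines, the purple diamond is PGF3-2 and blue squares are the subcutaneous Type 2 lines. Grb10 reads 10.5 in PGF3-2, close to Type 1, and Adm reads 8.59, between the types.

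Type 3 lines give a further point of comparison. Of the 3099 genes, the Type 3 median lay nearer the Type 2 mean than the Type 1 mean in 2889. The same share over all genes tested was not worked out. For Wt1 the Type 3 median was 3.54, for Pparg 7.94 and for Fgf7 11.7. Igfbp3 was among the exceptions in degree, with a Type 3 median of 9.02, between the Type 1 mean of 11.9 and the Type 2 mean of 6.47.

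Many genes differed little. The 95% interval of the difference lay within -0.3 to 0.3 for 1287 of the genes tested. The most abundant of these were Tpt1, Lgals1, Rpl41, Eef1a1, Rps28 and Rps29, which encode the translationally controlled tumour protein, a galectin, ribosomal proteins and a translation elongation factor. Tpt1 read 14.3 to 14.4 in Type 1 and 14.2 to 14.3 in Type 2, and the difference of Eef1a1 was -0.08, with an interval of -0.21 to 0.05.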

How the data were processed

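The log2 values were used as deposited; the unit was inferred from their range of 2.03 to 14.46. The authors used MAS5, per the submitters' processing notes; the sources used here give no version, scaling or summary step. Of 45101 probe sets, 34945 have 1 symbol in the platform annotation, 932 several and 9160 none, besides 64 controls; 34741 of the first were matched by Entrez ID to RefSeq (GRCm38.p6), and 0 symbols changed. Each of 18193 genes took its probe set with the highest mean over 23 lines, and 12307 exceeded the table median in at least 3 lines. Groups were compared with limma 3.58.1 in R 4.3.3 (lmFit, eBayes, 1 shared spread over 4 groups) with Benjamini-Hochberg adjustment over all genes tested. The fit was tested on simulated data. Array medians lay between 5.09 and 5.16, and 0 array pairs were identical. Scores were compared by exact permutation in scipy 1.17.1, and Fisher's exact test is two-sided; tables and plots used pandas 2.3.3 and matplotlib 3.10.9 in Python 3.11.15. Because 1 mouse gave every line, the p-values reflect variation among clones only.

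Named genes are the 15 furthest up and the 15 furthest down of those passing with no overlap of lines; 11 listed genes; up to 4 passing and 2 abundant other members of each of 34 lists; the 6 of widest range in each type; the 6 of widest gap between depots in each direction; and the 6 most abundant with a narrow interval. Predicted and clone names were left out, as was Ly6a, not analysed here. Other genes were picked after their values were seen. Members and lists were chosen with earlier results of these data known. Alternatives changed the lines fitted, depot, clone-name number, filter, scaling, probe set and treatment of spread.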

Additional observations from a re-analysis of the deposited data

Results flagged for a closer look

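Among 218 named genes, 19 had 1 Type 2 line whose gap to the nearest other, over the group's range, exceeded the critical value of 0.71 for 5 lines. Chance flags about 1 in 20 groups, but these genes include 6 chosen for a wide range within Type 2 and 12 for the gap between depots, so the count cannot be read against that share. Type 1, with 3 lines, was not examined this way. PGF3-2, the perigonadal line, was the distant line for 9 of them. It was low for Adm (8.591), Ccn2 (9.823), Ctsk (8.361), Ifi207 (7.336), Slc24a3 (5.012) and Smtn (6.513), and high for Ctnnal1 (8.052), Rhou (8.464) and Rrm2 (13.467). The gap between its 3' and 5' actin probe sets, 1.004, also stood above the 0.65 to 0.741 of the other Type 2 lines, and whether this bears on those genes was not tested.

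SCF3-1 was low for Ebf2 (4.74), Hoxa9 (6.582), Itga7 (4.364) and Mmp23 (9.575). SCF1-23 was high for Hand2 (6.706), Itga5 (6.603) and Rpl39l (11.004). SCF3-8 was high for Pitx1 (6.674) and low for S1pr3 (9.207), and SCF3-11 was high for Igf1 (6.884). For Ebf2, Hand2, Igf1, Itga7 and S1pr3 the distant line still lay on the Type 2 side of all Type 1 lines, except that Itga7 in SCF3-1 was further from Type 1 than its fellows.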

How the results depend on the processing

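The count of 3099 genes (1782 higher, 1317 lower) was within 1.5 times of itself under most alternatives. Against PGF3-2 alone it was 1111 (590 higher, 521 lower). With array weights it was 5818 (3182 higher, 2636 lower), and the estimation of the weights stopped before converging. Leaving out each line in turn gave 2004 to 2913 genes, 1081 to 1750 higher and 923 to 1245 lower, the lowest without PGF2-8, where 62.05% of the 3099 were kept. Quantile normalization moved the share of higher calls to 50.76%, against 57.5%. Depot as a term left 2484 genes. No named gene that passed changed direction under these alternatives. Of 137 named genes that passed, 82 passed against PGF3-2 alone, 115 without PGF2-8 and 122 with depot in the model.

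Other probe sets of 7 named genes that passed (Adam23, Car12, Col12a1, Erbb3, Mbp, Prrx1 and Slc2a3) had the opposite sign in at least 1 case, and 0 of those passed. Some named genes with several probe sets of the same sign, among them F11r, Hand2, Fgfr2, Ptx3, Cd53, H2-K1 and Notch3, had only 1 that passed. For Itga6 and Vcl, both called higher above, 0 of 2 passed when all single-symbol probe sets were adjusted together. No paired analysis was possible because the replicate numbers only follow the order of deposition. With the number in the clone names as a block, whose meaning the labels do not give, 2655 genes passed, 84.35% of the 3099 were kept, and 128 of the 137 named genes passed.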
